A study of Mus musculus with 9 samples.

Results

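Axon guidance genes of the Eph-ephrin, Slit-Robo and netrin families were examined in RNA sequencing of dorsal root ganglia (DRG) from E18.5 mouse embryos. Members were taken by gene symbol alone: the EphA and EphB receptors, the ephrin-A and ephrin-B ligands, Slit1 to Slit3, Robo1 to Robo4, the netrins, the netrin-Gs, the Unc5 receptors, Dcc and Neo1. The rule found 41 of the 55247 genes in the table. The 9 libraries came from 3 genotypes with 3 libraries each. WT embryos were compared with Isl1Cre/+ embryos, which carry Cre in 1 of the Isl1 copies, and with Isl1Cre/+::Meis2LoxP/LoxP embryos (mutant), which carry the same Cre allele and in which exon 8 of both Meis2 copies is flanked by LoxP sites. Isl1Cre/+ and mutant embryos thus share the loss of 1 Isl1 copy, and WT embryos differ from the mutant in both alleles. Isl1 drives Cre in postmitotic sensory neurons and also in other Isl1 expressing cells. The floxed Meis2 line had been backcrossed to C57BL/6, and the background of the other embryos is not given in the sources used here. Sources used here do not give the litter of a library or whether the ganglia of several embryos were pooled, so p-values measure only the spread between these libraries.

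Eph receptors are receptor tyrosine kinases that bind membrane-bound ephrins on neighbouring cells, and contact usually makes the growth cone withdraw. EphA receptors mostly bind the lipid-anchored ephrin-As, and EphB receptors the transmembrane ephrin-Bs. Slits are large secreted repellents that signal through Robo receptors. Secreted netrins attract axons through Dcc or its relative Neo1 and repel them through Unc5 receptors, whereas the netrin-Gs are lipid-anchored and bind other partners. In sensory neurons these families are known for steering axons into the limb and the spinal cord, and for the branching of sensory axons.

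Libraries held between 23854607 and 29103444 counts, of which the guidance genes took 0.125% to 0.138%. The targeted gene followed the labels. Meis2 had 2919, 2902 and 2746 counts in WT, then 2806, 2857 and 2537 in Isl1Cre/+ and only 1084, 1073 and 1004 in the mutant. This gave a log2 fold change of -1.33 against WT (adjusted p = 0.00779) and -1.23 against Isl1Cre/+ (adjusted p = 0.00215, both from the edgeR quasi-likelihood fit, Benjamini-Hochberg adjusted over 13200 genes). Isl1, of which the Cre allele replaces 1 copy, had a log2 fold change of -0.48 against WT in both Cre genotypes. Its libraries did not overlap with WT in either comparison, and it met the study's criterion in both (unadjusted p = 0.00593 in Isl1Cre/+ and 0.00756 in the mutant, both at an adjusted p of 1 by edgeR). All 10 sensory neuron markers were found, with a summed level of 6276 to 9608 counts per 1000000 counts of the library after TMM scaling (cpm) per library. WT library 1 and mutant library 2 stood apart, with a median rank correlation with the other libraries of 0.981 and 0.979 against 0.991 to 0.995. Markers of skeletal muscle summed to 50.5 to 113 cpm in Isl1Cre/+, 87.7 to 709 cpm in WT and 91.1 to 1632 cpm in mutant libraries, the highest in mutant library 2, and those of erythroid cells to 300.1 to 859, 782 to 1844 and 1063 to 3440 cpm. By the study's criterion, given with the comparisons, 5 of 5 tested markers of each of these lists were higher in mutant than in Isl1Cre/+ and lower in Isl1Cre/+ than in WT. So were 2 of 4 tested markers of cartilage and bone in each of these comparisons. Of the 2 tested sympathetic neuron markers, Dbh met the criterion in these comparisons, at log2 fold changes of 2.95 and -4.21, and Th did not, at -0.14 and -0.16. In mutant versus WT, Th met it at -0.31, and Dbh had -1.26 and did not. Over the 9 libraries, markers of Schwann and satellite glial cells summed to 1402 to 1837 cpm, of fibroblasts and meninges to 2566 to 4910, of macrophages to 51.6 to 129, of cartilage and bone to 41.4 to 113, of sympathetic neurons to 13.6 to 27.6 and of dividing cells to 197 to 303 cpm. In whole ganglia, fewer cells of a type and less RNA per cell cannot be told apart.

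Nearly all members were present in the ganglia. A level per length was set as cpm per kilobase of the exonic bases of a gene (RPKM). In WT, 8 members were at 10 RPKM or more, 27 between 1 and 10 and 6 below 1. Of the 41 members, 36 had at least 100 counts in at least 1 library and were tested. The other 5 were Epha1 (17 to 36 counts), Efna4 (37 to 62 counts), Ntn4 (35 to 74 counts), Ntn5 (24 to 54 counts) and Robo3, the receptor of commissural axons, which had 0 to 3 counts in any library. A count of 0 allows up to 3 counts.

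**Figure D1:**
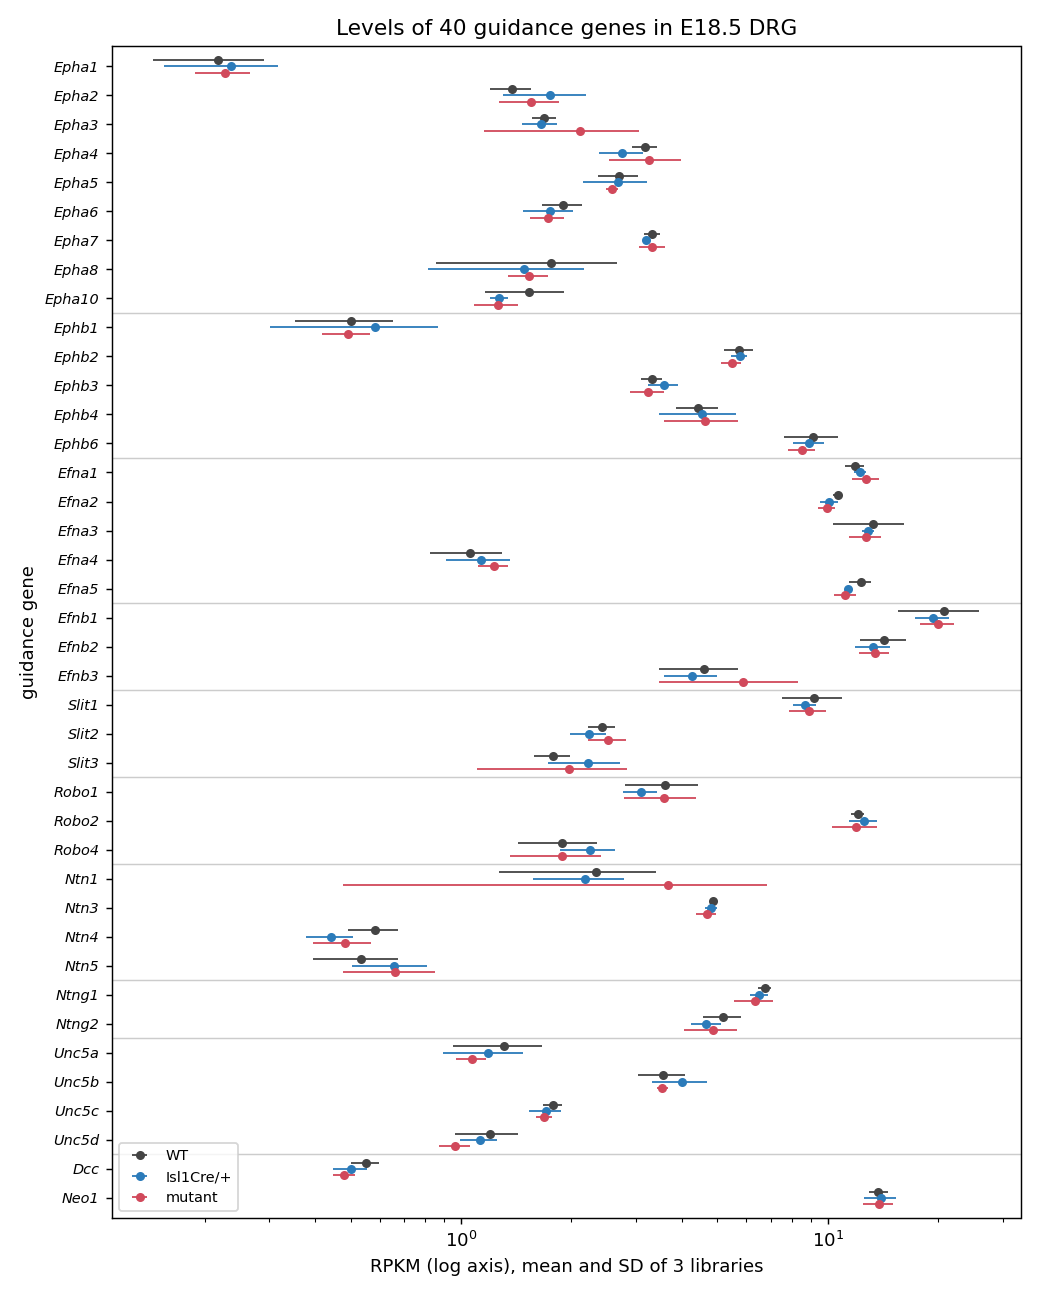
Level of 40 guidance genes by genotype, in RPKM on a log axis. Points are means and bars the SD of 3 libraries, and Robo3 at 0 to 3 counts is left out. Efnb1 is the highest at 20.7 RPKM in WT, and the 3 genotypes lie close together for most genes.

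Ligands stood above receptors in the Eph system. Summed over members, the ephrin-A ligands reached 46.2 to 52.6 RPKM in the 9 libraries and the EphA receptors 16.1 to 20.1 RPKM, so that ligand exceeded receptor 2.31 to 3.12 times in every library. Ephrin-B ligands reached 33.9 to 49.1 RPKM and EphB receptors 21 to 26.5 RPKM, a ratio of 1.5 to 2.08. The Slit-Robo pair was the other way round, with 11.7 to 15.7 RPKM of Slits, 16.3 to 18.49 RPKM of Robo receptors and a ratio of 0.641 to 0.903. Dcc and Neo1 summed to 12.9 to 15.8 RPKM, the netrin-Gs to 9.81 to 12.9 RPKM, the netrins to 7.20 to 13.0 RPKM and the Unc5 receptors to 7.15 to 8.51 RPKM. These ratios compare transcripts in whole ganglia and do not say which cells carry them. They also depend on the length used. For some members the exonic bases far exceed the longest coding transcript: 16739 against 7328 in Epha5, 16983 against 8591 in Robo2 and 25433 against 9960 in the ligand Slit2.

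Among the ephrins, the B class ligand Efnb1 was the highest member per length. In cpm Efnb2 had the higher WT mean (97.9 against 71.6). Efnb1 had 92.2, 61.1 and 61.5 cpm in WT, 74.4, 66.1 and 60.3 cpm in Isl1Cre/+ and 65.2, 77.7 and 64.8 cpm in mutant libraries. WT library 1 was the highest, and the other WT libraries lay among those of the Cre genotypes. Efnb2, also a transmembrane ligand, was at 14.3 ± 2.05 RPKM in WT (SD, n = 3), 13.3 ± 1.45 in Isl1Cre/+ and 13.4 ± 1.28 in mutant. In the A class Efna3 had the highest WT mean per length, while Efna5 was higher in cpm (49.6 against 32.3). Efna3 had 40.5, 28.1 and 28.3 cpm in WT, 30.4, 32.6 and 31.2 cpm in Isl1Cre/+ and 34.5, 29.7 and 28.6 cpm in mutant libraries. Again WT library 1 was on top for Efna3. Its WT mean of 13.3 ± 2.91 RPKM (SD, n = 3) did not differ from that of Efna5 beyond this spread. Of its exonic bases, 14.1% lie opposite exons of Gm15998, and the strand setting of the counting is not given in the sources used here. Efna5, Efna1 and Efna2 followed in WT at 12.3 ± 0.85, 11.9 ± 0.735 and 10.6 ± 0.282 RPKM (SD, n = 3). Efna5 and Efna1 did not differ beyond these SDs.

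Summed over members, Eph receptors were lower than their ligands. Per length Ephb6, a member of the family without kinase activity, led the EphB receptors, and Epha7 led the EphA receptors. In cpm Ephb2 had a higher WT mean than Ephb6 (72.4 against 34.4), and Epha5 than Epha7 (45.2 against 32.8). Ephb6 had 40.9, 32.2 and 30.0 cpm in WT, 33.8, 36.7 and 30.2 cpm in Isl1Cre/+ and 33.9, 28.9 and 33.6 cpm in mutant libraries. Epha7 had 34.1, 30.9 and 33.3 cpm in WT, 32.3, 31.3 and 31.1 cpm in Isl1Cre/+ and 32, 36 and 30.7 cpm in mutant libraries. The genotypes overlapped for Ephb6 and Epha7. Epha7 at 3.32 ± 0.167 RPKM and Epha4, a receptor that binds ephrins of both classes, at 3.18 ± 0.256 RPKM in WT (SD, n = 3) could not be ranked against each other within this spread.

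Robo2 took the largest count of any member, 4578 to 6416 per library. It had 195, 211 and 209 cpm in WT, 192, 221 and 226 cpm in Isl1Cre/+ and 231, 174 and 205 cpm in mutant libraries, and both the highest and the lowest library were mutant. Robo1 was at 3.61 ± 0.812 RPKM and the endothelial receptor Robo4 at 1.89 ± 0.456 RPKM in WT, beside 12.1 ± 0.525 RPKM for Robo2 (SD, n = 3). Slit1 was the most abundant Slit per length, with 66.3, 48.5 and 48.8 cpm in WT, 54.5, 52.4 and 47.4 cpm in Isl1Cre/+ and 55.4, 45.6 and 56.9 cpm in mutant libraries, so the genotypes overlapped. Slit2 and Slit3 were at 2.42 ± 0.202 and 1.78 ± 0.198 RPKM in WT (SD, n = 3).

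In the netrin system, the receptor Neo1, which also binds repulsive guidance molecules, had 128, 115 and 116 cpm in WT, 126, 131 and 108 cpm in Isl1Cre/+ and 115, 133 and 112 cpm in mutant libraries. Its relative Dcc was at 0.549 ± 0.0475 RPKM in WT, 0.50 ± 0.0519 in Isl1Cre/+ and 0.48 ± 0.0331 in mutant (SD, n = 3), against 13.8 ± 0.818 RPKM of Neo1 in WT. Among Unc5 receptors Unc5b led per length, while Unc5c had the higher WT mean in cpm (34.0 against 22.3). Unc5b had 24.7, 18.55 and 23.7 cpm in WT, 27.1, 20.2 and 28.1 cpm in Isl1Cre/+ and 21.4, 22.9 and 22.2 cpm in mutant libraries. All mutant values of Unc5b lay within the range of WT. Ntn3 was the most abundant secreted netrin, with 25, 25.1 and 24.4 cpm in WT, 24.6, 23.6 and 25.4 cpm in Isl1Cre/+ and 23.8, 22.4 and 25.4 cpm in mutant libraries. Its coefficient of variation over the 9 libraries was 4.07%, beside 3.87% from counting alone. Ntng1, a lipid-anchored netrin, had 58.0, 55.2 and 53.3 cpm in WT, 52.7, 56.9 and 51.1 cpm in Isl1Cre/+ and 59.3, 47.0 and 50.3 cpm in mutant libraries, with overlap of all genotypes.

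The order within a family depended on the length used for some members, since the exonic bases of a gene cover all of its annotated transcripts. With the longest coding transcript as the length, a choice made after the values were seen, 8 of 10 families kept the same leading member. Epha5 then led the EphA receptors at 6.17 RPKM and Ntng2 the netrin-Gs at 11 RPKM, of which 14.0% of the exonic bases are shared with 6530402F18Rik on the same strand. Robo2 moved from 12.1 to 23.9 RPKM, the highest of all members. The family sums and ratios given above were not recomputed with this length.

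The mutant was then compared with each control genotype. The criterion of the study was applied to the edgeR quasi-likelihood fit: a gene was called when it differed by 1.2-fold or more and its unadjusted p was under 0.05. Of the 36 members tested, 0 met this criterion in mutant versus WT, where 0.318% of all tested genes did. In mutant versus Isl1Cre/+, 0 members met it against 1.67% of all tested genes, and in Isl1Cre/+ versus WT 0 members against 1.4%. At these shares, fewer than 1 called gene among 36 would match the background, so a count of 0 does not set the members apart. An unadjusted p under 0.05 was reached by 0 members in each of the 3 comparisons, as it was by 0.371%, 2.73% and 1.79% of all tested genes, and an adjusted p under 0.05 by 0 members beside 0.00758%, 0.00758% and 0%. The DESeq2 Wald test and limma voom also gave 0 members at an unadjusted p under 0.05. The smallest unadjusted p by edgeR was 0.105 in mutant versus WT, 0.121 in mutant versus Isl1Cre/+, both for the netrin receptor Unc5d, and 0.0927 for Slit3 in Isl1Cre/+ versus WT. Libraries of the compared genotypes failed to overlap for 0 members in any comparison, where this held for 2.76%, 7.65% and 5.66% of all tested genes.

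The intervals show which differences these libraries allow, and a smaller share of the members than of all tested genes was tightly bounded. The 95% interval of the fold change lay within 1.5-fold in either direction for 25 of 36 members in mutant versus WT, 26 in mutant versus Isl1Cre/+ and 28 in Isl1Cre/+ versus WT, against 82.4%, 87.6% and 85.9% of all tested genes. Within 2-fold it lay for 34, 32 and 34 members (94.4%, 88.9% and 94.4%, beside 95.5%, 95.5% and 96.8% of all tested genes). A change as small as the 1.2-fold of the criterion was outside the interval for 2, 11 and 7 members (5.56%, 30.6% and 19.4%, beside 16.6%, 41.2% and 25.2% of all tested genes), and for the other members it could not be told from no change. The narrowest intervals in mutant versus WT, by standard error, were those of Unc5c (log2 fold change -0.08, from -0.28 to 0.13), Ntn3 (-0.06, from -0.26 to 0.15), Efna2 (-0.10, from -0.31 to 0.11), Efna5 (-0.14, from -0.36 to 0.08) and Epha7 (0.01, from -0.22 to 0.23).

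**Figure D2:**
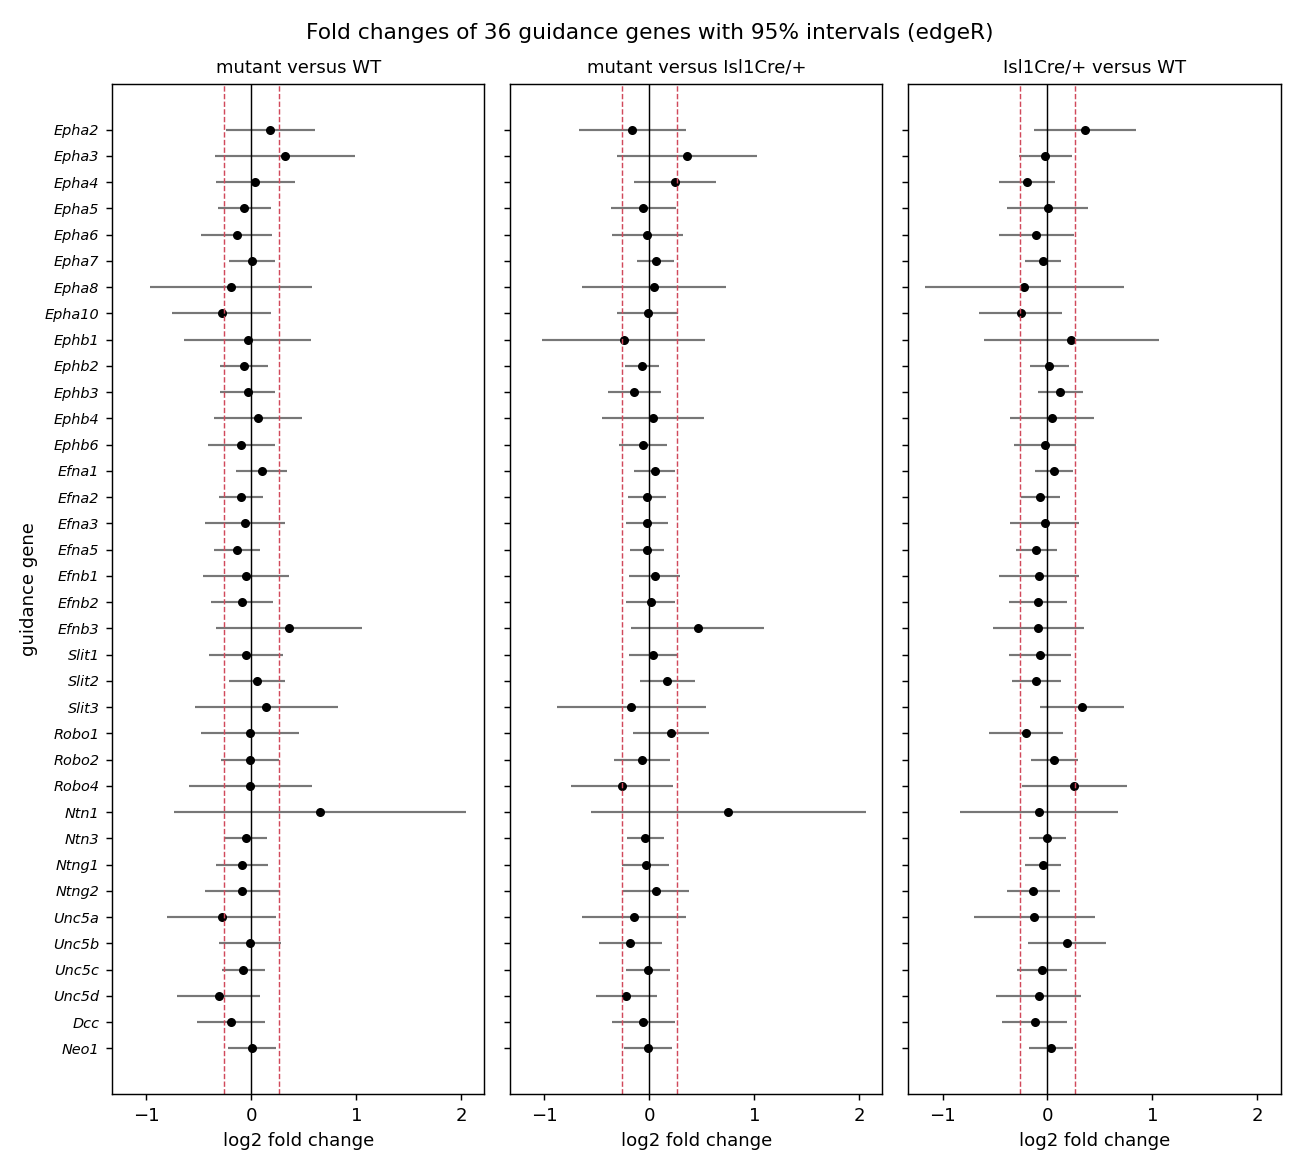
Log2 fold change of the 36 tested members in each comparison, with 95% intervals from edgeR; dashed lines mark a fold change of 1.2. Every interval includes 0, and Ntn1 has the widest interval against WT, from -0.73 to 2.04.

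Fold changes leaned slightly below 0. The median log2 fold change over the members was -0.05 in mutant versus WT, -0.02 in mutant versus Isl1Cre/+ and -0.05 in Isl1Cre/+ versus WT, beside -0.01, 0.00 and -0.00 over all tested genes. Values lay below 0 for 25, 22 and 24 of 36 members, and for 53.8%, 49.8% and 50.7% of all tested genes. With library size as the only scaling 23, 23 and 20 members lay below 0. That scaling also moved the median over all tested genes, to 0.003, -0.02 and 0.03. Below this median lay 23, 22 and 25 members, beside 24, 22 and 24 below the median of the reported fit. The mutant is the first genotype in 2 of these comparisons and WT the second in 2, so they share libraries. Library 1 of WT was the highest of the 9 libraries for 13 of 36 members, as it was for 30.4% of all tested genes, and the lowest for 1 member beside 24.7% of all tested genes. Mutant library 2 was the highest for 8 members and the lowest for 11, beside 18.3% and 16.2% of all tested genes.

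By family, the EphA receptors ranged from -0.28 for Epha10 to 0.32 for Epha3 in mutant versus WT, and the EphB receptors from -0.10 for Ephb6 to 0.06 for Ephb4. Ephrin-As ranged from -0.14 for Efna5 to 0.10 for Efna1, and ephrin-Bs from -0.09 for Efnb2 to 0.36 for Efnb3. The Slits lay between -0.05 for Slit1 and 0.14 for Slit3, and all Robo receptors tested were at -0.01. Netrin-Gs were both at -0.09. Dcc was at -0.19 and Neo1 at 0.00.

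The Unc5 receptors, which turn the response to netrin into repulsion, had negative values in 4 of 4 members in both mutant comparisons, none past the test. In Isl1Cre/+ versus WT 3 of 4 were below 0. Over all tested genes 53.8%, 49.8% and 50.7% lay below 0 in mutant versus WT, mutant versus Isl1Cre/+ and Isl1Cre/+ versus WT. In mutant versus WT Unc5d was at -0.31, Unc5a at -0.28, Unc5c at -0.08 and Unc5b at -0.01, and in mutant versus Isl1Cre/+ they were at -0.22, -0.15, -0.01 and -0.18. In Isl1Cre/+ versus WT they were at -0.08, -0.12, -0.05 and 0.18. With library size alone or with DESeq2 size factors, 3 of 4 were below 0 in mutant versus WT, as Unc5b changed sign. These scalings also raised the median over all tested genes, from -0.009 to 0.003 and 0.002. The mutant libraries are the same in both mutant comparisons. Unc5d had 9.22, 13.4 and 10.5 cpm in WT, 9.33, 10.04 and 11.7 cpm in Isl1Cre/+ and 9.28, 7.91 and 9.52 cpm in mutant libraries. Mutant library 2 was the lowest, and the other mutant libraries lay above the lowest WT library and overlapped with the low values of both controls. Without WT library 1, Unc5d met the criterion in mutant versus WT at a log2 fold change of -0.43 (unadjusted p = 0.0323, adjusted p = 0.994 by edgeR). Without WT library 2, the highest of all, it was -0.15.

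**Figure D3:**
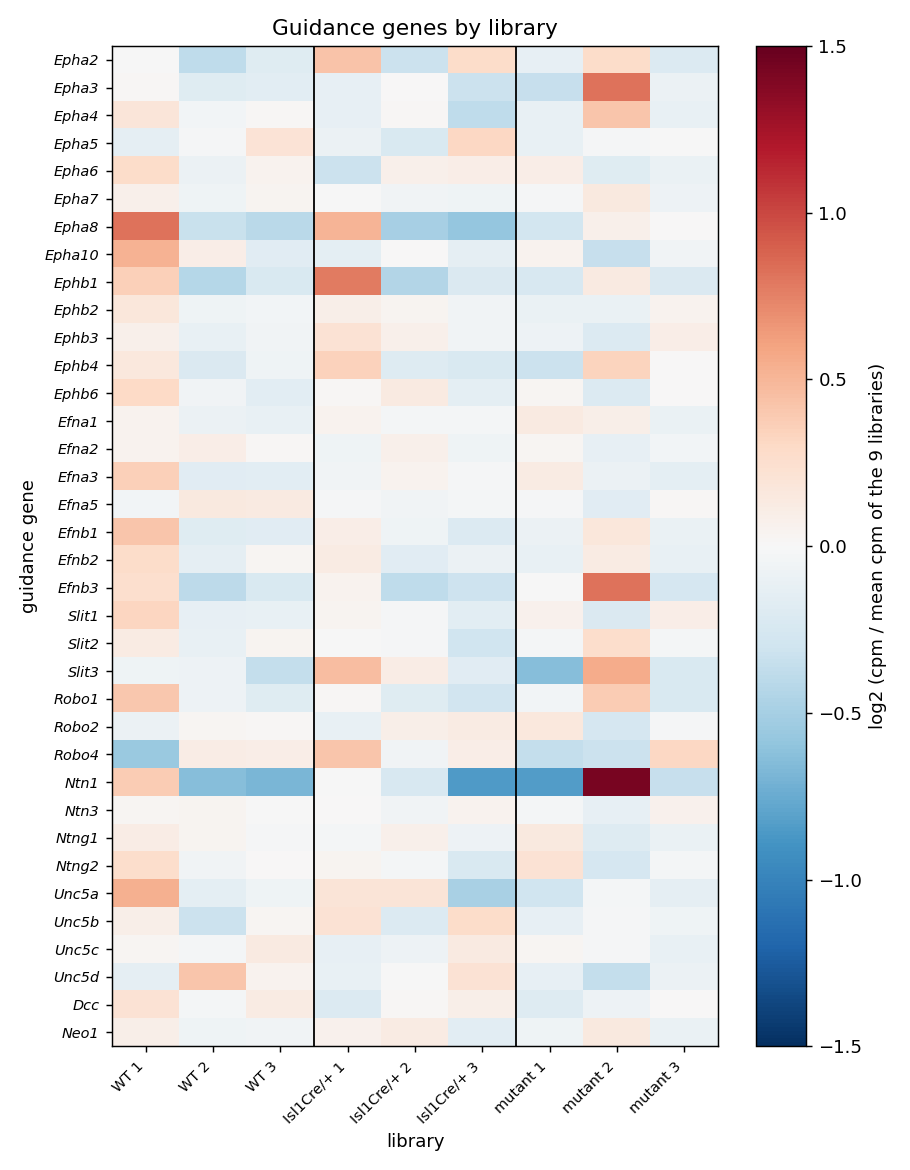
Each of the 36 tested members in each library, as log2 of its cpm over the mean of the 9 libraries. Red marks values above the mean and blue values below it. Ntn1, Epha3 and Efnb3 are highest in mutant library 2, and Epha8 in WT library 1.

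The spread between libraries was wider in the guidance genes than over all genes. The median coefficient of variation over the 9 libraries was 12.3% for the 36 members and 9.61% for all tested genes, at a median WT level of 3.44 and 6.59 RPKM. It exceeded 25% for 6 members (16.7%, beside 6.78% of all tested genes): Ntn1 at 67.8%, Epha8 at 36.7%, Ephb1 at 32.2%, Efnb3 at 31.7%, Epha3 at 29.5% and Slit3 at 27.2%. These members were picked out after their values were seen.

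Ntn1, the canonical secreted netrin, had 22.4, 11 and 10.6 cpm in WT, 17.0, 14.5 and 9.53 cpm in Isl1Cre/+ and 9.59, 46.0 and 13.4 cpm in mutant libraries. A single mutant library with 1211 counts stood at 3.77 times the median of the other libraries, and the other mutant libraries overlapped with the controls. Its log2 fold change of 0.65 against WT (95% interval from -0.73 to 2.04) and 0.75 against Isl1Cre/+ (from -0.56 to 2.06) was the highest of the members, and without mutant library 2 it was -0.32 and -0.24. Without both WT library 1 and mutant library 2 it was 0.09 against WT. In mutant library 2 the muscle markers, at 1632 cpm, the erythroid markers, at 3440 cpm, the fibroblast and meningeal markers, at 4910 cpm, and the macrophage markers, at 129 cpm, were also the highest of all libraries, and their part in the values of Ntn1 was not tested.

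The same library was the highest for Epha3 and Efnb3. Epha3, an EphA receptor, had 15.9, 13.9 and 14.1 cpm in WT, 14.5, 15.8 and 12.6 cpm in Isl1Cre/+ and 12.4, 27.7 and 14.8 cpm in mutant libraries. Efnb3, an ephrin-B ligand, had 18.6, 11.9 and 13.3 cpm in WT, 16.2, 12 and 12.6 cpm in Isl1Cre/+ and 15.6, 27.5 and 13.1 cpm in mutant libraries. Apart from mutant library 2, the genotypes overlapped for both. Without it, the log2 fold change against WT was -0.08 for Epha3 and -0.00 for Efnb3. Slit3 had 11.5, 11.5 and 9.42 cpm in WT, 16.6, 13.1 and 10.7 cpm in Isl1Cre/+ and 7.74, 17.8 and 10.3 cpm in mutant libraries, so that the mutant held both the lowest and the highest value. Against Isl1Cre/+ its log2 fold change was -0.17 in all libraries and -0.58 without mutant library 2, where it met the criterion (unadjusted p = 0.0216, adjusted p = 1 by edgeR). Without mutant library 1 it was 0.06.

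Epha8 and Ephb1 were high in WT library 1 and Isl1Cre/+ library 1. Epha8, an EphA receptor, had 13.2, 5.98 and 5.70 cpm in WT, 10.7, 5.33 and 5.05 cpm in Isl1Cre/+ and 6.20, 7.94 and 7.55 cpm in mutant libraries. Ephb1, an EphB receptor known from retinal axons, had 4.71, 2.73 and 3.13 cpm in WT, 6.33, 2.72 and 3.18 cpm in Isl1Cre/+ and 3.12, 4.03 and 3.16 cpm in mutant libraries. Of 9 markers of spinal cord neurons and glia, only Gfap passed the filter, and it was highest in the same libraries, with 236 counts in WT library 1 and 325 in Isl1Cre/+ library 1 against 5 to 118 elsewhere. The whole list summed to 13.4 cpm in WT library 1 and 13.2 cpm in Isl1Cre/+ library 1 against 1.5 to 7.26 cpm elsewhere. Gfap gave the larger part of the sum in both of these libraries. The inhibitory neuron marker Pax2 had 0 to 12 counts per library and Slc32a1 0 to 25, with 9 and 25 in WT library 1 and 0 of both in Isl1Cre/+ library 1, and the highest Pax2 counts were in WT library 3 and mutant library 3. The part of spinal cord cells, whose presence these markers do not settle, in the values of Epha8 and Ephb1 was not tested. Without Isl1Cre/+ library 1, Epha8 met the criterion in mutant versus Isl1Cre/+ with a log2 fold change of 0.48 (unadjusted p = 0.024, adjusted p = 1 by edgeR), beside 0.04 with all libraries and -0.15 without Isl1Cre/+ library 3.

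**Figure D4:**
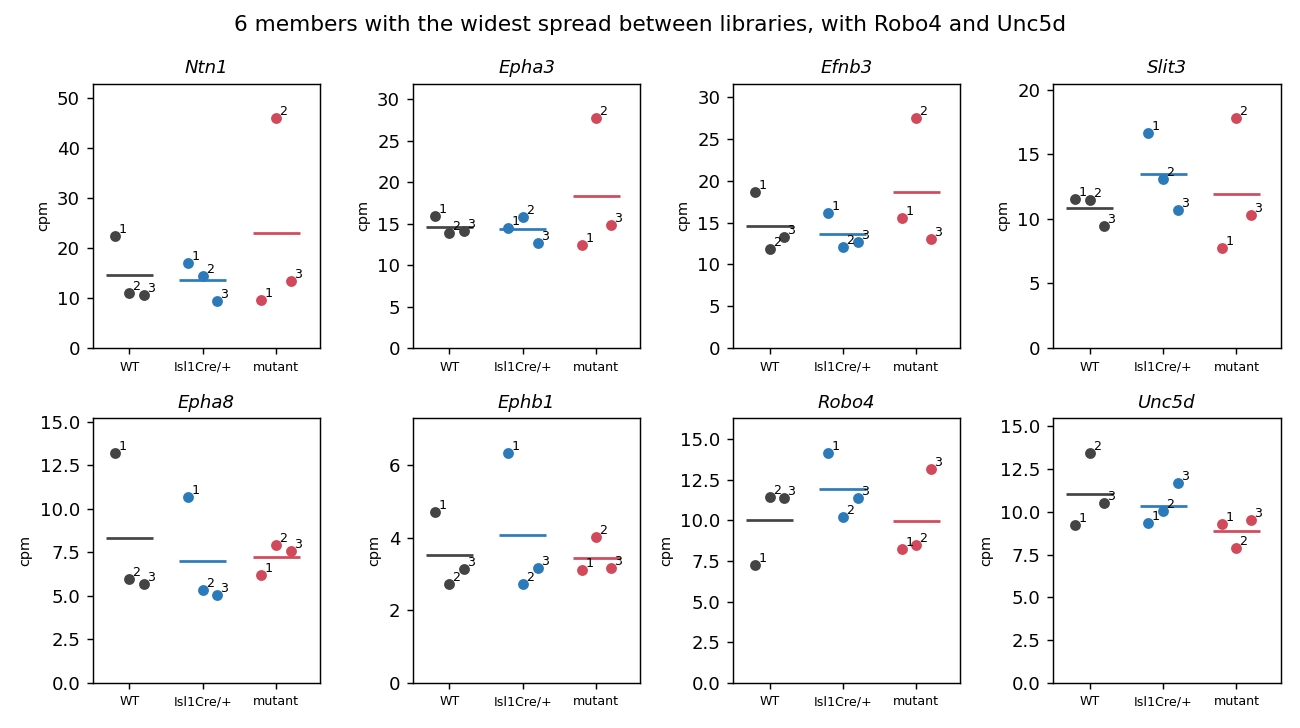
Level in cpm of 8 members in each library, with the library number beside each point and the mean as a line. Mutant library 2 stands out for Ntn1 at 46.0 cpm, Epha3 and Efnb3, and WT library 1 for Epha8 at 13.2 cpm.

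Isl1Cre/+ embryos lack 1 Isl1 copy, and their comparison with WT gives the background of the Cre allele. The members ranged from -0.25 for Epha10 to 0.36 for Epha2, and 34 of 36 lay below a fold change of 1.2, as did 94.2% of all tested genes. Epha2, an EphA receptor also found in vessels and epithelia, had 7.27, 5.59 and 6.43 cpm in WT, 9.84, 5.83 and 8.79 cpm in Isl1Cre/+ and 6.69, 8.82 and 6.32 cpm in mutant libraries. The genotypes overlapped. Robo4 had 7.23, 11.5 and 11.4 cpm in WT, 14.2, 10.2 and 11.4 cpm in Isl1Cre/+ and 8.27, 8.48 and 13.2 cpm in mutant libraries. Its values gave a log2 fold change of 0.26 in Isl1Cre/+ versus WT and -0.26 in mutant versus Isl1Cre/+. Endothelial markers summed to 313 to 341 cpm in WT, 362 to 481 cpm in Isl1Cre/+ and 275 to 434 cpm in mutant libraries, the highest in Isl1Cre/+ library 1 where Robo4 and Epha2 were also highest. Of 8 endothelial markers, 3 rose in Isl1Cre/+ versus WT by the criterion (Pecam1, Kdr and Flt1) and 8 of 8 had a log2 fold change above 0. In mutant versus Isl1Cre/+, 8 of 8 lay below 0 and Kdr met the criterion at -0.37 (unadjusted p = 0.0376, adjusted p = 1 by edgeR). The part of these markers in the values of Robo4 and Epha2 was not tested. Without mutant library 3, Robo4 met the criterion in mutant versus Isl1Cre/+ at -0.51 (unadjusted p = 0.019, adjusted p = 0.919 by edgeR). Without Isl1Cre/+ library 1 it was -0.12 in that comparison, and without WT library 1 it was 0.05 in Isl1Cre/+ versus WT.

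Genes that act downstream of these receptors or bind them were read from the same fits. Of 64 such genes in 3 lists, 63 were tested, and 0 met the criterion or had an unadjusted p under 0.05 by edgeR in any comparison, beside 0.318%, 1.67% and 1.4% of all tested genes that met the criterion, which is near 1 gene or less among 63. By limma voom the count was also 0, and by the DESeq2 Wald test 1 gene had an unadjusted p under 0.05 in Isl1Cre/+ versus WT and 0 met the criterion. Against WT the mutant values ran from -0.28 for Lrrc4, a netrin-G family partner, to 0.19 for the adaptor Grb10. Values lay below 0 for 18 of 25 Eph and ephrin effectors, 12 of 16 Slit and Robo effectors and partners and 16 of 22 netrin effectors and partners. Against Isl1Cre/+ they lay below 0 for 16, 14 and 16 genes of these lists, and in Isl1Cre/+ versus WT for 11, 7 and 6. Over all tested genes 53.8%, 49.8% and 50.7% lay below 0 in the 3 comparisons. Libraries did not overlap for 1 effector in mutant versus WT (Lrrc4), for 5 in mutant versus Isl1Cre/+ (Fyn, Pak1, Srgap1, Ptk2 and Lrrc4, all lower) and for 6 in Isl1Cre/+ versus WT (Abl2, Pak1, Srgap1, Trim67, Ablim1 and Ptk2, all higher), beside 2.76%, 7.65% and 5.66% of all tested genes. These genes were named after their values were seen. Median log2 fold changes over the 63 genes were -0.03, -0.04 and 0.02, beside -0.01, 0.00 and -0.00 over all tested genes.

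Promoters of the members were searched for TGACAG on both strands (reverse complement CTGTCA), the core letters that MEIS proteins are known to bind. RefSeq promoters on GRCm38.p6, from 250 bases before to 50 after a start, matched 36 of 41 members with 41 entries. The letters were found in 5 entries of 4 members, 12.2% of entries, beside 19.2% of 32851 promoter entries of the genome. They were present for Efna3, Efnb2, Robo2 and Ntn4. The entries with a match of the 3 members above 10 RPKM in WT are shown in the direction of transcription, with the matched letters in capitals.
Efna3, chr3:89321719-89322018, minus strand: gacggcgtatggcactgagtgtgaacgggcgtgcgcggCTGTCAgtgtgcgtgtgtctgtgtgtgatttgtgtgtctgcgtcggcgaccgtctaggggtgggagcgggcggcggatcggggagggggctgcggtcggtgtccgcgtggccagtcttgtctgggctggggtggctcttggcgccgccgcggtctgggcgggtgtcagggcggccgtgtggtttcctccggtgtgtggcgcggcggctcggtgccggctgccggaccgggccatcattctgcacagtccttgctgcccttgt
Efnb2, chr8:8661193-8661492, minus strand: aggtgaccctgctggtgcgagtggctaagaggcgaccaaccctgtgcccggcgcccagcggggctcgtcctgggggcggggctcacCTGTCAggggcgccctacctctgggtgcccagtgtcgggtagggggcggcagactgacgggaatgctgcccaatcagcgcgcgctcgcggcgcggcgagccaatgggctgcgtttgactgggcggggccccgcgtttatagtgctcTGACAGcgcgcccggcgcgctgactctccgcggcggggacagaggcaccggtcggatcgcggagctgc
Robo2, chr16:75092721-75093020, minus strand: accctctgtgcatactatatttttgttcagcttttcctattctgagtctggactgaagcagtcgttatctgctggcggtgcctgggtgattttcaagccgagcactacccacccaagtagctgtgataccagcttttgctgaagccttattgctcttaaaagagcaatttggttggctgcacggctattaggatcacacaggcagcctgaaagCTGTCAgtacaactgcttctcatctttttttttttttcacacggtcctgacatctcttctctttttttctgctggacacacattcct
Robo2, chr16:75447244-75447543, minus strand: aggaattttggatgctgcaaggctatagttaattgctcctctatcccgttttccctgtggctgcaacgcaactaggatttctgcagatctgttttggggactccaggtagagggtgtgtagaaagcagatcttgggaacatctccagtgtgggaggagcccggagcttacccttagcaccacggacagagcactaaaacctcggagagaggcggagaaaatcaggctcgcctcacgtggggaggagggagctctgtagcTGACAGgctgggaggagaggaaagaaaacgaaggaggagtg
The match lies 212 bases before the start in Efna3, 164 and 18 bases before it in Efnb2, and 37 bases before and 9 bases after it in the promoters of Robo2. Both of these Robo2 starts are upstream of the span of the gene in GENCODE M21 (16, 73891839 to 74411825), and counting by exons does not separate transcripts by their start. The Robo2 entry at the upstream end of this span (16, 74411776 to 74412075) held 0 matches. So did the Efna3 entry (3, 89322890 to 89323189) at the upstream end of the span of Efna3. In mutant versus WT these genes had log2 fold changes of -0.06 (Efna3, 95% interval from -0.44 to 0.32), -0.09 (Efnb2, from -0.38 to 0.21) and -0.01 (Robo2, from -0.29 to 0.26). A match of letters is not evidence of binding.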

How the data were processed

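RNA from DRG of E18.5 embryos was sequenced in 9 libraries. Per the labels and the study's methods, the authors took poly(A) RNA into libraries that carried molecular identifiers, mapped the single-end reads on mm10 (STAR 2.7.10), removed duplicates and deposited raw counts of uniquely mapped reads per gene from HTSeq-count 0.6. The annotation release and strand setting are not given in the sources used here. The authors' own limma voom columns for each pair of genotypes (deposited log2 fold change and mean log2 expression, p-value and adjusted p-value, and the moderated statistic and log odds as scores) were not used.

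Groups were taken from the labels. The 13200 genes that reached 100 counts in any library were scaled by TMM. In edgeR 4.0.16 (R 4.3.3) every pair of genotypes had its own quasi-likelihood fit and two-sided test, and p-values were adjusted by Benjamini-Hochberg over these genes. The depth was 23854607 to 29103444 counts. RPKM used TMM-scaled cpm and exonic bases of GENCODE M21 (GRCm38). Of 55247 identifiers, 55154 matched that annotation. Alternatives used DESeq2 1.42.0, limma 3.58.1, other filters, scalings and folds, and libraries left out. Scripts were tested on simulated data. Named with library values were Meis2, members meeting the criterion, and the leading member per family by WT level, and others were named by fold change or, where stated, after their values were seen. Members and the lists of markers and effectors were chosen with earlier results of these data known.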

Additional observations from a re-analysis of the deposited data

How the results depend on the processing

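Of 1545 fold changes of members under the alternatives, 12 met the criterion and 0 had an adjusted p under 0.05 (edgeR, DESeq2 or limma voom). The sign differed from the reported fit in 172, none of them past the criterion. Without a filter on low counts, the members meeting the criterion were 0, 1 (Efnb3) and 1 (Slit3) in mutant versus WT, mutant versus Isl1Cre/+ and Isl1Cre/+ versus WT, and all genes 408, 1028 and 845. With at least 100 counts in every library all genes came to 139 in mutant versus Isl1Cre/+ and 104 in Isl1Cre/+ versus WT. Leaving out 1 library at a time gave 0 to 1, 0 to 2 and 0 to 1 members and 40 to 132, 167 to 407 and 102 to 340 genes in the 3 comparisons. Beside the members named above, these were Unc5b at -0.32 (without Isl1Cre/+ library 2) and Efnb3 at 0.66 (without mutant library 3) in mutant versus Isl1Cre/+, and Epha10 at -0.39 (without WT library 3), Epha2 at 0.54 (without Isl1Cre/+ library 2) and Slit3 at 0.46 (without Isl1Cre/+ library 3) in Isl1Cre/+ versus WT. Leaving out WT library 1 and mutant library 2 together, chosen after seeing the data, gave 182 genes and 0 members in mutant versus WT. The cause of these shifts was not tested. The replicate block gave 0, 0 and 1 members (Slit3 at 0.31 in Isl1Cre/+ versus WT, unadjusted p = 0.0369 by edgeR), but same-numbered libraries deviated with correlations of -0.595 to 0.389 over 9 pairs and 3 of 9 libraries correlated best with their own number, so they share only a number.

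For Robo2, the member with the largest count, the coefficient of variation over the 9 libraries was 8.77%, beside 1.33% from counting alone. For Ntn3 these were 4.07% and 3.87%. For the 5 members below the filter they ran from 16.6% to 97.3% and from 13.9% to 100%, with 24.6% beside 16.3% for Ntn5. The share of depth and of spread between libraries in the intervals was not tested.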
